A study of Mus musculus with 12 samples.

Results

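MMT cells are an established line (ATCC CCL-51) from a mouse mammary tumour, and the comparison asked which genes differ when the transcription factor Pea3 (gene Etv4) is knocked down in them. It sets 4 arrays of cells transfected with an siRNA directed against Pea3 (siPea3) against 3 arrays of cells transfected with a control siRNA (siCtrl), chosen by their sample titles, 7 of the 12 arrays of the series. All cells were grown in DMEM with fetal calf serum, gentamycin and non-essential amino acids, and the labels name no engineered allele. The other 5 arrays were 3 of cells with an siRNA directed against Erm (gene Etv5, siErm) and 2 of untransfected cells, named so by title only, since their treatment field also speaks of siRNA transfection. They shared the model fit and are given only beside results of siPea3 cells. The labels give neither the dose and sequence of the siRNAs nor the time after transfection. The design text calls the replicates biological, and all of them are of 1 cell line. Signals are the deposited intensities of single-colour arrays in arbitrary linear units, and differences are given on the log2 scale, siPea3 minus siCtrl.

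Pea3 (Etv4), Erm (Etv5) and Er81 (Etv1) are the PEA3 members of the ETS family, transcription factors that bind DNA at a GGAA core and can activate their targets downstream of receptor tyrosine kinases and MAP kinases. The group takes part in the branching of the mammary gland, and Pea3 is often abundant in mammary tumours. Genes that literature places downstream of it include matrix metalloproteinases, Vim and Erbb2.

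Etv4 itself checks the label. Its signal was 21.1, 20.6, 18.1 and 16.4 on siPea3 arrays 1 to 4 and 36, 43.1 and 31.5 on siCtrl arrays 1 to 3. The siPea3 arrays all lay below the siCtrl arrays, with a residual signal of about the same size on each. The log2 difference was -0.95 ± 0.24 (exact permutation test on this probe, 2-sided p = 0.0286, the smallest that 35 splits of the arrays allow), and in the limma fit over all probes Etv4 did not pass (adjusted p = 0.195). After quantile normalization or scaling over detected probes the difference was -0.64 (exact permutation p = 0.0571). Taken as pairs by replicate number, Etv4 was lower in 3 of 3, where the exact test can give no p under 0.25. All siPea3 arrays also lay below all siCtrl arrays for 13.6% of all tested genes, and for 17.6% of those detected on all 7 arrays. This order of the arrays therefore does not single out Etv4. Etv1 was 12.6, 1.32, 5.23 and 1.74 against 13.2, 14.7 and 6.36, with overlapping groups and low values on siPea3 arrays 2 and 4 (exact permutation p = 0.114). Etv5 was not detected on any siPea3 array (0.59 to 0.8) and was at 2.77, 1.16 and 0.99 on the siCtrl arrays, near background. Its siPea3 arrays thus also lay below all siCtrl arrays (exact permutation p = 0.0286, limma adjusted p = 0.593). The log2 differences of Etv1 (-1.61 ± 0.70) and Etv5 (-1.06 ± 0.87) were no smaller than that of Etv4, with wider errors.

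A probe counted as detected where its signal was 3 times its noise or more, and 16724 probes detected on at least 2 of the 12 arrays were tested with limma. Of these, 9182 carried 1 gene symbol and stood for 8864 genes. siPea3 array 2 had the fewest detected probes (11286, 34.2%) and the lowest upper quartile of signal (7.47, against 10.2 to 14.4 on the other arrays). Together with siCtrl array 2 it correlated least with its own group (r = 0.939 to 0.944 across probes, which are not independent). Markers checked the labelled tissue. Of 11 luminal epithelial markers on the array, 6 were detected on all 7 arrays, among them Krt8, Krt18, Krt19 and Cd24a, and 4 on none, among them Epcam, Esr1 and the milk gene Csn2. Of 10 fibroblast markers, 1 was detected on all 7 arrays, with a summed signal of 1252 to 2732 in siPea3 and 1191 to 2597 in siCtrl cells. Of 7 endothelial, 6 T and B cell and 4 adipocyte markers, 0 were detected on all 7, while 3 of 7 macrophage markers (Cd14, Lyz2 and Mrc1) and 2 of 8 myoepithelial markers were.

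Promoters are shown for the 3 higher and the 3 lower genes with the smallest p that had an entry, which Cd70, Dusp9 and Has2 had not, because they are the genes on which the comparison turns. Each stretch holds 250 bases before and 50 bases after the annotated start of the gene in RefSeq (GRCm38.p6), 5′ to 3′ on the strand of the gene. Capitals mark each GGAA, the ETS core, or its reverse complement TTCC, and AGGAAG, a site described for Pea3, which contains the core. The genes higher in siPea3 cells were Slc5a1 (chr5:33103969-33104268, plus strand), Hoatz (chr9:51102029-51102328, minus strand) and Mmel1 (chr4:154869335-154869634, plus strand). The genes lower in siPea3 cells were Prl3d2 (chr13:27121445-27121744, plus strand), Prl3d3 (chr13:27156544-27156843, plus strand) and Slc35g1 (chr19:38395730-38396029, plus strand).
Slc5a1: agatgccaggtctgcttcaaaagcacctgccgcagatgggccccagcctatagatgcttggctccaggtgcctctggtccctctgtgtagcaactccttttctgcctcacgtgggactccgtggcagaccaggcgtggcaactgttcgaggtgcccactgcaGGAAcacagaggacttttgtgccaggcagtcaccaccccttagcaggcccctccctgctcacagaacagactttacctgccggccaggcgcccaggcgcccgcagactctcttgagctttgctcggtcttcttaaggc
Hoatz: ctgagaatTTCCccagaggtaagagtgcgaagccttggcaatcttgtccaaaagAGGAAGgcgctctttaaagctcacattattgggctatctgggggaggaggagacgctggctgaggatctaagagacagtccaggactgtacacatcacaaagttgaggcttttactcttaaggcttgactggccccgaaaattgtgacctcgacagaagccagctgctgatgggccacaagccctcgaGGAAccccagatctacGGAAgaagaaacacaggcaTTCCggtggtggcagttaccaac
Mmel1: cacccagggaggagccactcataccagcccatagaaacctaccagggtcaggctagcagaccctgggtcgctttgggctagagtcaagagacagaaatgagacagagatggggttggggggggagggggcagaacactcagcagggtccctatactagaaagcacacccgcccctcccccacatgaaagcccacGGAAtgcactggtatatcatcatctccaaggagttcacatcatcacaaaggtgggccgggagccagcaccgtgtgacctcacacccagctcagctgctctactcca
Prl3d2: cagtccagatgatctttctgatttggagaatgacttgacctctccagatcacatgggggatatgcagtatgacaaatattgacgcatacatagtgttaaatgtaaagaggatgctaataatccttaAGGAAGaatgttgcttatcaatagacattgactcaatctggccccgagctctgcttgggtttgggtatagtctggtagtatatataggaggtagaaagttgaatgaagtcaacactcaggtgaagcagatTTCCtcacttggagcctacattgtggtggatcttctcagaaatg
Prl3d3: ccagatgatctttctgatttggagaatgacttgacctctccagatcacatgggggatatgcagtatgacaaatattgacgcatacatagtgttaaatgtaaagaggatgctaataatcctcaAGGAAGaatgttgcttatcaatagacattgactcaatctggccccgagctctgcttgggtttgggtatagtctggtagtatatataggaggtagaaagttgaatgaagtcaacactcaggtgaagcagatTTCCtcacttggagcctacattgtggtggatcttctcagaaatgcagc
Slc35g1: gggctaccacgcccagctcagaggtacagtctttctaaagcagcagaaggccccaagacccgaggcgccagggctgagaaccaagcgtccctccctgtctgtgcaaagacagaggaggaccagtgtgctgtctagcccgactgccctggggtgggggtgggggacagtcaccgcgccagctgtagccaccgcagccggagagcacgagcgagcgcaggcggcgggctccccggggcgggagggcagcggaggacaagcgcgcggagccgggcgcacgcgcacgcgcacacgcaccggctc

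AGGAAG stood once in the stretches of Hoatz, Prl3d2 and Prl3d3 and was not among the letters of the others, and Slc35g1 held no GGAA on either strand. The Prl3d2 and Prl3d3 stretches are nearly the same sequence: shifted by 4 bases, 295 of 296 bases were equal. Among all 27025 promoters of this length, 35.1% held AGGAAG on either strand. The share was 33.5% of 995 tested genes whose siPea3 arrays all lay below the siCtrl arrays and 32.9% of 207 whose siPea3 arrays all lay above them, beside 32.7% of all 7219 tested genes with an entry. GGAA was found in 94.97% of the lower and 96.14% of the higher genes and in 95.94% of all promoters. The shares of the higher and the lower genes thus lay close to that of all tested genes. A match is a description of the letters in this window, and so is its absence.

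Few probes passed and most differences pointed down. In limma, 6 of 16724 probes (0.0359%) passed at an adjusted p under 0.05, and 2 of the 9182 with 1 symbol (0.0218%), Slc5a1 higher and Prl3d2 lower. At an unadjusted p under 0.05 there were 465 probes higher (2.78%) and 1774 lower (10.6%), 2239 in all (13.4%). By gene, all 4 siPea3 arrays lay above all 3 siCtrl arrays for 249 of 8864 genes (2.81%) and below them for 1208 (13.6%). These shares over all genes are set beside the counts of genes with separate groups below. Among the 5800 genes detected on all 7 arrays the counts were 133 (2.29%) and 1018 (17.6%). The background of lower genes is thus above 13.6% for a list of well detected genes.

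The excess of lower genes depended on the scaling of the arrays. Over all probes the median log2 difference was -0.24 as deposited, -0.29 after median scaling, -0.05 after quantile normalization and 0.07 after scaling over detected probes. Of the probes with separate groups, 81.4% were lower as deposited (475 higher, 2.84% of all probes, and 2080 lower, 12.4%), 84.7% after median scaling (379 and 2098), 52.1% after quantile normalization (1084 and 1179) and 38.7% after scaling over detected probes (1425 and 900). List medians are therefore also given relative to -0.24. The lower genes were also the brighter ones. When genes were cut into 4 equal bins by mean signal, 4.56% of the dimmest bin lay below and 5.01% above the siCtrl arrays, and in the brightest bin 19.1% and 1.99%.

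**Figure D1:**
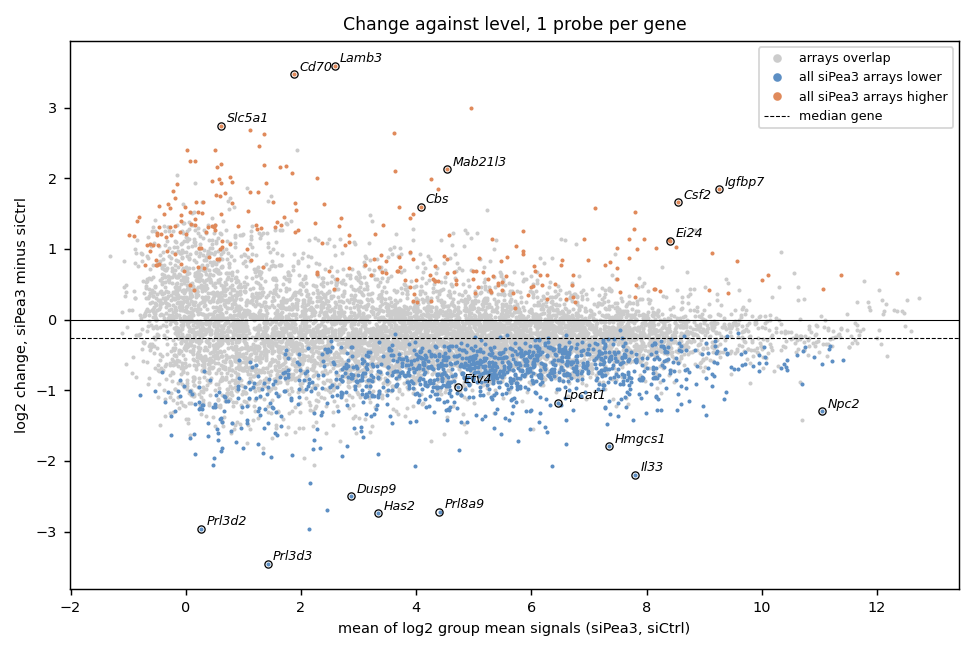
Log2 difference between siPea3 and siCtrl cells (vertical axis) against the mean of the log2 group means (horizontal axis) for 8864 genes, 1 probe each. Orange points are the 249 genes with all siPea3 arrays above all siCtrl arrays, blue points the 1208 with all below, rings mark named genes, and the cloud lies below 0 except at its dim end.

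Slc5a1, the sodium-glucose cotransporter of the intestine, rose in siPea3 cells. Its signal was 3.25, 2.96, 5.87 and 3.95 on the siPea3 arrays and 0.6, 0.67 and 0.48 on the siCtrl arrays. All 4 siPea3 arrays stood clear of the siCtrl arrays, where the gene was not detected, and array 3 was the highest. The log2 difference was 2.74 ± 0.32 (limma adjusted p = 0.0177), a fitted 6.69-fold over siCtrl signals that were not detected. Prl3d2, a prolactin family gene otherwise known from the placenta, fell. It was 0.36, 0.36, 0.43 and 0.57 against 2.43, 3.57 and 4.09, not detected on any siPea3 array and detected on all siCtrl arrays. The log2 difference was -2.96 ± 0.36 (adjusted p = 0.0177), or 6.63-fold with undetected values raised to the lowest detected signal. Near-identical copies may share its probe. With the replicate number as a block the adjusted p was 0.103 for Slc5a1 and 0.0955 for Prl3d2, and 0 probes passed (1816 at an unadjusted p under 0.05). With 1 array left out, 0 to 9 probes passed. The count was 0 when siCtrl array 2 (1405 unadjusted), siCtrl array 3 (2393) or siPea3 array 4 (1727) was absent, and 2 when siCtrl array 1 was. It was 9 in the absence of siPea3 array 2. Over these fits the adjusted p reached 0.121 for Slc5a1 and 0.176 for Prl3d2.

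The other genes with the smallest p among the higher ones did not pass. Hoatz, which is associated with cilia and flagella, was 27.1, 20.4, 36.2 and 35.5 in siPea3 and 7, 2.61 and 5.56 in siCtrl cells. Cd70, the ligand of the receptor Cd27, was 4.05, 15.4, 19.7 and 13.6 against an undetected 1.22, 0.91 and 0.97. Mmel1, a membrane metalloendopeptidase, was 2.97, 3.74, 7.59 and 8.7 against an undetected 0.75, 0.69 and 1.02. In all 3 genes every siPea3 array was above the siCtrl arrays, and array 1 was the lowest for Cd70 and Mmel1 and array 2 for Hoatz. Their log2 differences were 2.64 ± 0.39, 3.47 ± 0.53 and 2.69 ± 0.42 (adjusted p = 0.0527, 0.0527 and 0.0654). The fitted fold was 11.1 for Cd70 and 6.44 for Mmel1, over siCtrl signals that were not detected.

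Enzymes and epithelial genes were among them too. Cbs, cystathionine beta-synthase of the transsulfuration pathway, was 25.6, 29.4, 32.1 and 28.7 against 12.9, 7.37 and 9.12, tight within siPea3 cells (log2 1.60 ± 0.29, adjusted p = 0.0885). Aldh1l1, a folate dehydrogenase, was 6.84, 6.86, 9.55 and 6.05 against 1.26, 2.2 and 1.83, but a second probe for it differed by only -0.08 ± 0.75 on the log2 scale. Ces2e, a carboxylesterase, ranged over 3.76 to 9.16 against 0.62 to 1.81. All 3 had separate groups on the probe given first. Lamb3, the beta chain of laminin 332, was 20.3, 11.7, 25.3 and 18.3 against 2.65, 0.51 and 2.55, a log2 difference of 3.59 ± 0.70 in which the low siCtrl array 2 took part (2.81 to 4.00 when 1 array was left out). Zfp750, a zinc finger factor of the epidermis, was 24.4, 31.9, 53.6 and 47.2 against 12.6, 6.42 and 14 (adjusted p = 0.119). Mab21l3, of the Mab-21 family, was 32.3, 46, 66.8 and 49.6 against 14.6, 7.91 and 10.9 (log2 2.12 ± 0.37). Ei24, an endoplasmic reticulum protein first known as a p53-induced gene, was brighter, at 437, 443, 603 and 516 against 266, 219 and 205, and its siPea3 arrays all exceeded the highest siCtrl array by a wide margin (log2 1.12 ± 0.22, adjusted p = 0.119). Inka2, an inhibitor of the kinase Pak4, was 51.4 to 63.2 against 22.7 to 30.1, and its second probe also had separate groups (log2 0.62 ± 0.25).

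**Figure D2:**
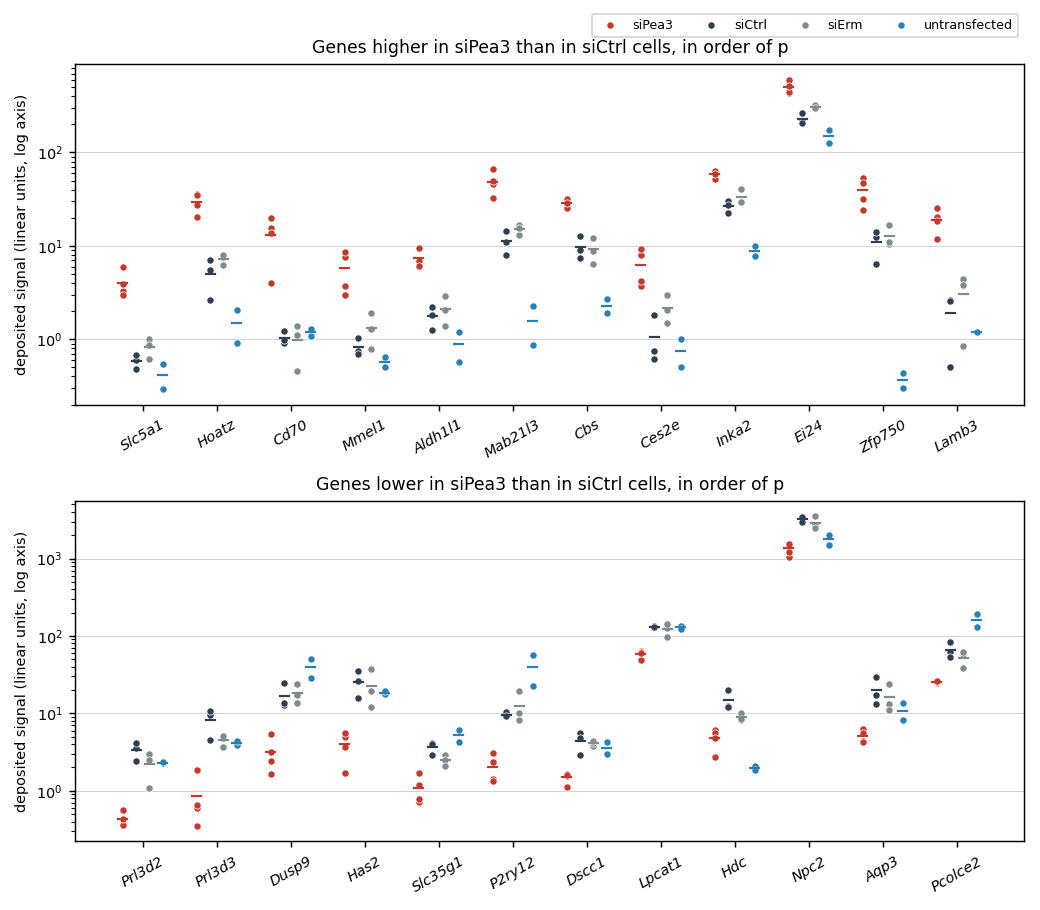
Deposited signal on each array (points, log axis) and group mean (bars) for the 12 higher and the 12 lower genes with the smallest p and separate groups, in siPea3, siCtrl, siErm and untransfected cells. The siErm points of Slc5a1, Cd70, Dusp9 and Has2 lie outside the range of the siPea3 points.

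Among bright probes detected on all 7 arrays, the largest higher differences included secreted proteins. Igfbp7, a secreted binding protein, was 2119, 568, 1089 and 857 on the siPea3 arrays and 556, 222 and 191 on the siCtrl arrays. siPea3 array 1 was far above the others, and siPea3 array 2 lay barely above the highest siCtrl array. Csf2, the granulocyte-macrophage growth factor, was 476, 514, 971 and 729 against 208, 185 and 223, with well separated groups (log2 1.66 ± 0.51, adjusted p = 0.253). Gadd45b, a stress-inducible gene of growth arrest, was 441, 317, 392 and 331 against 175, 97 and 125 (log2 1.52 ± 0.32). The glucose transporter gene Slc2a6 was 176, 165, 304 and 313 against 54.8, 91.8 and 88.9, highest on arrays 3 and 4 (log2 1.59 ± 0.35). The receptor gene Notch3 was 21.3 to 30.1 against 6.59 to 15.1 and Krt17, a keratin of basal and stressed epithelium, 15.3 to 33.6 against 7.83 to 9.64. Myh7, a slow muscle myosin heavy chain, Rdm1, a protein with a RAD52 motif, and Abca8b, a lipid transporter of the ABC family, differed by 2.10 ± 0.59, 1.99 ± 0.48 and 1.60 ± 0.49, the first 2 with a siCtrl array 2 far below the other siCtrl arrays. None of these 9 genes passed in limma (adjusted p = 0.134 to 0.253).

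Of the lower genes, Prl3d3, a close copy of Prl3d2, was 0.35, 1.86, 0.59 and 0.65 against 4.47, 9.61 and 10.8, detected on 1 of 4 siPea3 arrays (log2 -3.45 ± 0.50, adjusted p = 0.0527). Has2, a hyaluronan synthase, was 4.96, 1.71, 3.71 and 5.53 against 26.1, 35 and 15.7. Dusp9, a phosphatase of MAP kinases, was 5.44, 1.63, 3.12 and 2.4 against 12.9, 24.4 and 13.4. The groups stood well apart for both, with siPea3 array 2 the lowest and siCtrl array 2 the highest (log2 -2.74 ± 0.48 and -2.50 ± 0.42, adjusted p = 0.0853 and 0.084). P2ry12, a receptor for ADP, was 1.42, 3.07, 2.36 and 1.35 against 9.28, 10.3 and 9.14. Aqp3, a channel for water and glycerol, was 6.36, 4.36, 5.59 and 4.25 against 13.3, 29.7 and 17.2. Hdc, which makes histamine from histidine, was 6.02, 5.6, 2.76 and 4.76 against 12.6, 20.3 and 12. None of the siPea3 arrays reached a siCtrl array in these 3 genes (adjusted p = 0.0885, 0.109 and 0.0987). The solute carrier gene Slc35g1 was 3.51-fold lower in the fit, undetected at 0.71 to 1.68 against 2.88 to 4.09. Dscc1, a subunit of a clamp loader for sister chromatid cohesion, was 1.12 to 1.66 against 2.89 to 5.56.

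Some of the lower genes were bright and tight over the siPea3 arrays. Npc2, a lysosomal carrier of cholesterol, was 1555, 1565, 1055 and 1225 in siPea3 and 3409, 3444 and 2994 in siCtrl cells (log2 -1.30 ± 0.24, adjusted p = 0.101). Lpcat1, an acyltransferase of phospholipid remodelling, was 64.9, 48.5, 61.8 and 59.8 against 135, 133 and 129.6 (log2 -1.18 ± 0.22). Pcolce2, an enhancer of procollagen processing, was 26.1, 24.9, 25.4 and 26.5 against 61.2, 82.8 and 52.7 (log2 -1.32 ± 0.26). The spread within siPea3 cells was small beside the gap to the siCtrl arrays in all 3, the siCtrl arrays of Pcolce2 spread more widely, and none passed.

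The largest lower differences among bright probes held cytokine, interferon-linked and lipid genes. Il33, an alarmin cytokine, was 122, 144, 92.4 and 52 against 430.1, 752 and 259 (log2 -2.19 ± 0.45, adjusted p = 0.13). Oasl1, an oligoadenylate synthetase-like gene induced by interferon, was 21.7, 57.2, 39.2 and 36.5 against 83, 283 and 155 (log2 -2.08 ± 0.43), and Slfn4, of the schlafen family, was 11.5, 16.4, 10.2 and 16.4 against 24.4, 56.5 and 78.5 (log2 -1.84 ± 0.48). The siCtrl arrays spread widely in these genes, with array 2 the highest for Il33 and Oasl1. Prl8a9, another prolactin family gene, was 3.11, 11.1, 12.1 and 3.89 against 17.9, 128 and 32, and 1 array, siCtrl array 2, held most of that gap in signal.

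Enzymes of sterol and fatty acid synthesis were in this group. Hmgcs1, the first committed enzyme of the mevalonate pathway, was 89.7, 96.4, 86.6 and 72.3 against 221, 403 and 294 (log2 -1.79 ± 0.59, adjusted p = 0.27). Idi1, isopentenyl diphosphate isomerase, was 16.7, 12.9, 21.7 and 15.2 against 49.2, 97.9 and 65.9, and its second probe also had separate groups (log2 -1.59 ± 0.75). Fdft1, squalene synthase, was 47.4, 68.2, 53.9 and 38.2 against 137, 275 and 134. Every siPea3 array lay below every siCtrl array in these genes, and siCtrl array 2 was the highest in all of them. Cyp51, lanosterol demethylase, was 20.5 to 29.3 against 59.3 to 85.6. Elovl6, a fatty acid elongase, was 20.9 to 27.2 against 61.8 to 107. Acsl4, which activates long fatty acids, was 8.44 to 53 against 82.9 to 102 with a second probe also lower (log2 -1.25 ± 0.35). The 2 arrays titled as untransfected lay far apart for Hmgcs1 (83 and 792), Idi1 (9.14 and 154) and Fdft1 (48.2 and 298). They were 29.9 and 161 for Cyp51, 33.2 and 190 for Elovl6 and 109 and 92.7 for Acsl4. The source of this spread was not tested. Eps8, an adaptor of the epidermal growth factor receptor, and Slc20a1, a phosphate transporter, were lower by log2 -1.54 ± 0.35 and -1.51 ± 0.35. None of the 12 genes named as largest lower differences passed (adjusted p = 0.13 to 0.293).

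Values in siErm cells are given for genes chosen after their values were seen. The siErm and siPea3 comparisons share the siCtrl arrays, so the values are only set side by side. Slc5a1 was 1.01, 0.62 and 0.87 on the siErm arrays, Cd70 1.11, 1.38 and 0.46, Dusp9 13.7, 24.3 and 17.4 and Has2 19.2, 37.4 and 12. The siErm range overlapped the siCtrl range in all 4 genes and did not reach the siPea3 arrays in any of them. Prl3d2, at 1.1, 2.97 and 2.52, also overlapped the siCtrl arrays and lay above every siPea3 array. For other genes the siErm arrays lay outside the siCtrl range: Ei24 was 298 to 325, Rdm1 16.6 to 17.4, Csf2 231 to 322 and Abca8b 8.71 to 9.45, above every siCtrl array, and Hdc 8.25 to 9.99 and Acsl4 53.3 to 62.7, below every siCtrl array. Tested directly, siPea3 differed from siErm cells by 2.24 ± 0.32 for Slc5a1, -2.26 ± 0.36 for Prl3d2, 3.68 ± 0.53 for Cd70, -2.65 ± 0.42 for Dusp9, 1.70 ± 0.29 for Cbs and -2.60 ± 0.42 for P2ry12 (limma adjusted p = 0.0558, 0.0884, 0.0558, 0.0884, 0.0884 and 0.0884). In that comparison 1 of 16724 probes passed (0.00598%), higher and without a gene symbol, and 1722 had an unadjusted p under 0.05 (10.3%). In the cells titled as untransfected, whose treatment is in doubt as said, several of the higher genes were lower still: Zfp750 was 0.365 ± 0.0919 (SD, n = 2), Slc2a6 5.07 ± 1.87, Gadd45b 22.4 ± 0.686 and Csf2 40.3 ± 41. Among the lower genes the untransfected level was above the siCtrl level for P2ry12 (39.8 ± 24.1) and Pcolce2 (163 ± 43.6) and far below it for Oasl1 (17.8 ± 5.56).

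Gene lists gave a view across pathways. There were 46 lists with 799 distinct tested genes, of which 0 passed in limma (134 at an unadjusted p under 0.05), 24 had all siPea3 arrays above and 124 all below the siCtrl arrays, beside 2.81% and 13.6% of all genes. Of the 36 lists with at least 10 tested genes, 10 had a median above that of all probes, and the medians relative to it ran from -0.31 (Polycomb and SWI/SNF subunits) to 0.55 (histone genes). The next highest was 0.34. The lower share was 17.6% among genes detected on all 7 arrays and 19.1% in the brightest bin. Those of translation factors (17.1%), ribosome biogenesis (17.6%), the tricarboxylic acid cycle (20%), ubiquitin enzymes (20%) and vesicle coats (21.9%) lay near these values. Because the scaling moves the background, a count of lower genes as deposited may not hold under the others: of all genes 7.41% were then separate and higher and 7.77% lower after quantile normalization, and 9.04% and 6.23% after scaling over detected probes.

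**Figure D3:**
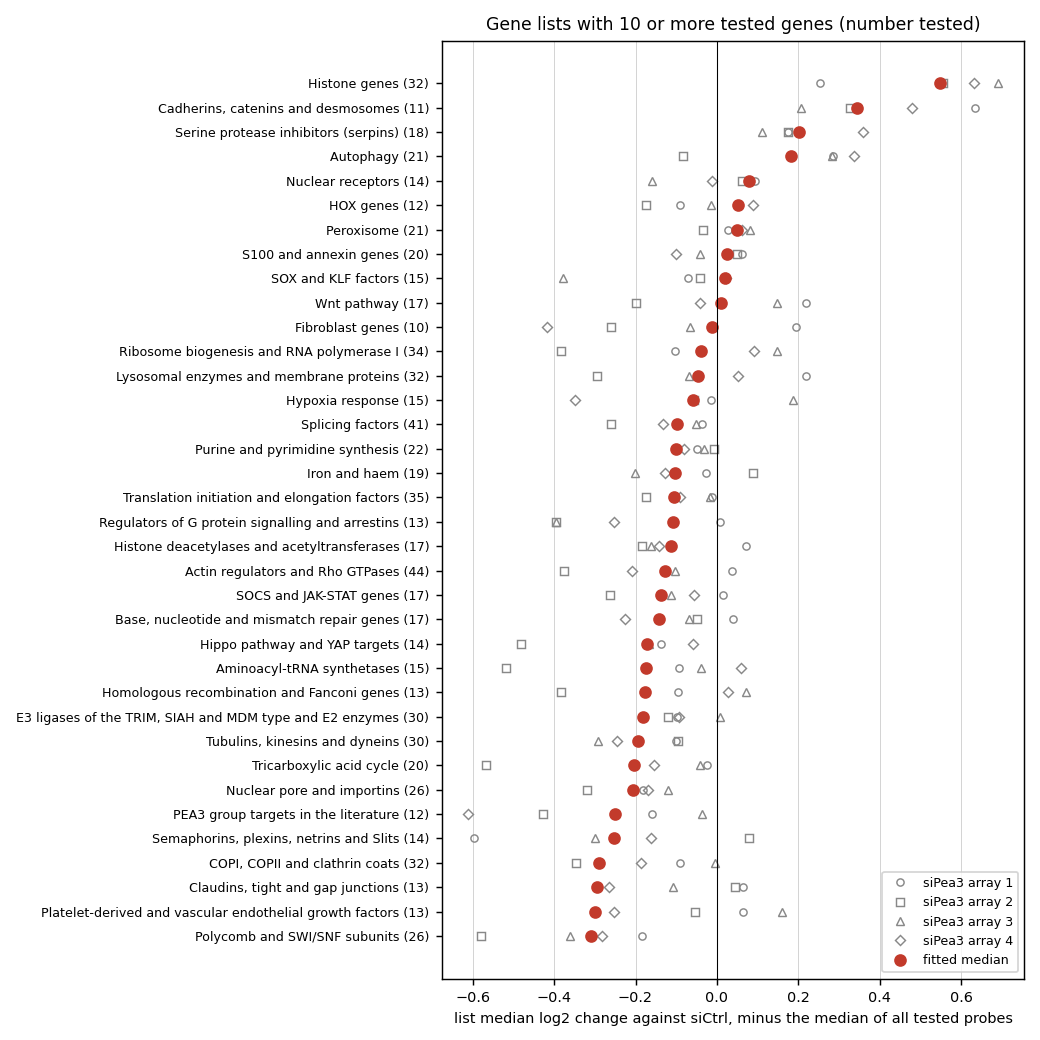
Median log2 difference of each list with at least 10 tested genes, minus the median of all tested probes (red), with the same for each siPea3 array against the siCtrl mean (open symbols). Histone genes lie highest, at 0.55, with all 4 arrays above 0. Polycomb and SWI/SNF subunits lie lowest, at -0.31, with all 4 below 0.

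Among lists with at least 10 tested genes, histone genes lay farthest above the rest. Histones package DNA, and most of their genes lie in clusters and are transcribed in S phase. Of 39 listed genes 32 were tested, 26 lay above the median of all probes, 9 had all siPea3 arrays above the siCtrl arrays and 0 below. The median log2 difference was 0.31, or 0.55 relative to all probes. Most of the separate genes were H2B genes, of which 7 of 9 were higher, with a median of 0.87. H2A genes had 1 of 7 (median 0.28), H4 genes 1 of 3 (0.47), linker H1 genes 0 of 6 (0.00) and H3 genes 0 of 2 (0.04). Of the 5 variants H2ax, H2az1, H2aj, H3f3a and H3f3b, 4 had negative differences, with a median of -0.34.

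H2bc4 was 428, 344, 516 and 331 on the siPea3 arrays and 262, 209.7 and 142 on the siCtrl arrays (log2 1.01 ± 0.28, unadjusted p = 0.00418, adjusted p = 0.227). H2bc9 was 272, 213, 470.1 and 352 against 177, 140.2 and 155 (log2 1.00 ± 0.28). H2bc8 was 47.8, 48.2, 94 and 74.6 against 41.4, 30.3 and 32.1 (log2 0.89 ± 0.29). siPea3 array 3 was the highest in each of these, and none passed. H2bc13 was 152 to 274 against 114 to 119.6. The remaining genes with separate groups, named after their values were seen, were H2bc7, H2bc12, H2bc14, H2ac10 and H4c6, at 179.7 to 415, 69.1 to 117, 80.6 to 168, 1086 to 2053 and 40.4 to 80.5 in siPea3 and 142 to 156, 48.3 to 55, 62.7 to 78.1, 746 to 948 and 35 to 39.1 in siCtrl cells. In siErm cells H2bc4 was 157 to 220.1 and H2bc9 162 to 169.5, and siPea3 differed from siErm by 1.07 ± 0.28 and 0.92 ± 0.28. Because H2B genes are near-identical copies, 1 probe may measure more than 1 of them, and they are not independent. The number of separate higher genes was 10, 11, 10 and 12 with quantile normalization, scaling over detected probes, without siPea3 array 2, and without siPea3 and siCtrl arrays 2. The background shares were then 7.41%, 9.04%, 4.91% and 9.34%.

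**Figure D4:**
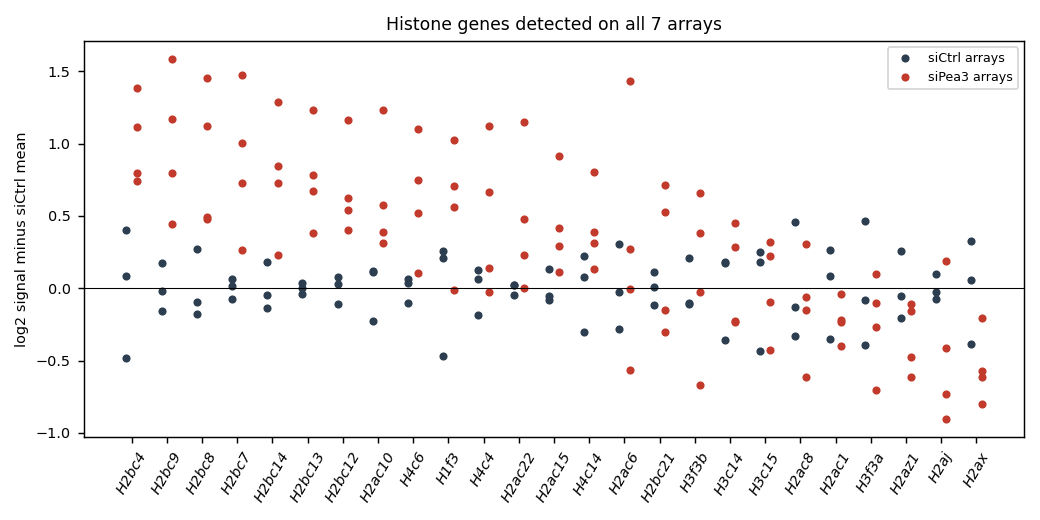
Log2 signal of the histone genes detected on all 7 arrays, minus the mean of the siCtrl arrays, ordered by fitted difference, with siCtrl arrays in dark blue and siPea3 arrays in red. Most H2B genes stand toward the left, 7 of the 9 tested with all siPea3 arrays above the siCtrl arrays, and the variants H2ax, H2aj, H2az1 and H3f3a at the right.

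Subunits of Polycomb and SWI/SNF complexes, which repress genes through histone marks and remodel nucleosomes, lay lowest among lists with at least 10 tested genes. Of 26 tested genes 9 were separate and lower and 1 higher, Phc3, named after its values were seen, and the median was -0.55 (-0.31 relative to all probes). Cbx2, a reader of the Polycomb mark, was 18.1, 14.9, 16.6 and 22.1 against 31.6, 32.5 and 34.5. Bmi1, a core subunit of Polycomb repressive complex 1, was 57.3, 36.3, 42.6 and 37.8 against 89.6, 106 and 63.2. Arid2, a subunit of the PBAF form of SWI/SNF, was 63, 43.3, 47.2 and 45.8 against 87.9, 107 and 78. Every siPea3 array of these genes lay below the siCtrl arrays, Arid2 with little spread outside array 1 (log2 -0.89 ± 0.23, -0.98 ± 0.27 and -0.87 ± 0.23, adjusted p = 0.195, 0.216 and 0.2). Smarca2, a SWI/SNF ATPase, was 8.61 to 14 against 14.7 to 26.1. The list held 7 separate lower and 2 higher genes under both quantile normalization and scaling over detected probes, where the background of lower genes was 7.77% and 6.23%. Histone deacetylases and acetyltransferases had 2 of 17 lower, Hdac3 (120.1 to 156 against 178 to 234) and Hdac2, named after its values were seen (251 to 324 against 337 to 438), and 1 higher, the mitochondrial deacetylase Sirt3 (69 to 84.2 against 46.9 to 58.2).

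Nuclear transport genes had 10 of 26 separate and lower and 0 higher (median -0.45, or -0.21 relative). Kpna2, an importin alpha, was 304, 214, 265 and 277 against 418, 532 and 364 (log2 -0.72 ± 0.23). The pore proteins Nup188, Nup93 and Nup85 were 26.1 to 46.8, 53.7 to 82.1 and 74.6 to 93.7 against 51.4 to 70.7, 85.4 to 138 and 114 to 151. None passed, and the count was 6 after quantile normalization and 5 after scaling over detected probes. Genes of the COPI, COPII and clathrin coats, which form transport vesicles, had 7 of 32 lower and a median of -0.53, but -0.23 (-0.05 relative) without siPea3 array 2. The clathrin adaptor subunit Ap2a2 was 20, 10.7, 15.7 and 13.4 against 29, 42.2 and 28.4 (log2 -1.16 ± 0.30) and the COPII coat subunit Sec24d 46.2, 25.1, 35.3 and 33.1 against 56.2, 82.7 and 58.4 (log2 -0.92 ± 0.28). Cope and Copz2 of the COPI coat were 117 to 192 and 5.62 to 7.57 against 245 to 379 and 9.38 to 12.3.

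Counts for genes of protein synthesis and RNA processing differed between lists. Aminoacyl-tRNA synthetases, which load amino acids onto tRNAs, had 6 of 15 separate and lower. Kars was 206, 144, 174 and 168 against 269, 429 and 258 (log2 -0.85 ± 0.25) and Qars 53.8 to 78.3 against 97.5 to 161. The list median was -0.93 on siPea3 array 2 and between -0.22 and -0.19 on the other 3. Translation factors had 6 of 35 lower, led by Gspt1, a release factor, at 219, 210.1, 209 and 155 against 388, 500.3 and 365, with the highest siPea3 array well under the lowest siCtrl array (log2 -1.07 ± 0.22, adjusted p = 0.13). The initiation factor Eif4h was 619.9 to 917 against 952 to 1382. Ribosome biogenesis had 6 of 34 lower and 1 higher, with the pre-ribosomal factor Pes1 at 8.62 to 20.2 against 22.2 to 34.2 and the nucleolar protein Npm1 at 881 to 1295 against 1560.4 to 1829. That balance turned with the scaling, to 1 lower and 4 higher after quantile normalization and 2 lower and 4 higher after scaling over detected probes. Splicing factors had 4 of 41 lower and 0 higher, a smaller share than among all genes, and 0 lower after quantile normalization, with Snrnp70 at 170.5 to 240.1 against 276 to 309.

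In the cytoskeleton, 9 of 30 tubulin, kinesin and dynein genes were separate and lower as deposited, 5 after quantile normalization and 1 after scaling over detected probes. Klc1, a kinesin light chain, was 53.9, 27.4, 42.1 and 36.2 against 83.3, 95.7 and 55 (log2 -0.97 ± 0.30). Tubb5, a beta tubulin, was 1189, 1117, 1066 and 965 against 1713, 1680.1 and 1601 (log2 -0.62 ± 0.22). Among 44 actin regulators 7 were lower. Myh9, non-muscle myosin II, was 16.7, 15, 18.5 and 16.7 against 55.3, 39.9 and 28.2, nearly constant over the siPea3 arrays and spread over the siCtrl arrays (log2 -1.25 ± 0.38, adjusted p = 0.248). Arpc5, a subunit of the Arp2/3 complex, was 101 to 128 against 151 to 263.

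Cell contacts and surface signals gave single genes. Of 13 claudin, tight and gap junction genes 2 were lower, and Gjc1, connexin 45, was 35.9, 30.2, 37.1 and 38.1 against 69.5, 101 and 69.6, a wide gap for its spread (log2 -1.16 ± 0.23, adjusted p = 0.119). Tjp1, the tight junction scaffold ZO-1, was 58.5, 24, 68.5 and 57.4 against 76.8, 85.8 and 83.4, with array 2 far below the other siPea3 arrays. Of 11 cadherin, catenin and desmosome genes 0 were separate in either direction. Of 14 semaphorin and plexin genes 4 were lower: Sema7a was 122, 132, 151 and 129.6 against 231, 399.5 and 246 (log2 -1.09 ± 0.29), Sema5a 1.92 to 6.26 against 7.55 to 9.99, and the receptor Plxnb1 5.28 to 6.94 against 9.18 to 10.8. Nrp2, a coreceptor for semaphorins and vascular endothelial growth factors, was 2.73, 1.1, 3.55 and 2.65 against 10.1, 5.61 and 9.64 (log2 -1.83 ± 0.43), the 1 separate gene of 13 in the list of platelet-derived and vascular endothelial growth factors. In the insulin-like growth factor axis, Igfbp7 was higher as above and Irs1, an adaptor of the insulin receptor, was undetected in siPea3 cells at 0.58 to 1.1 against 1.19 to 5.01, 2 of 7 genes.

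Known targets of the PEA3 group gave 1 gene with separate groups. Of 20 listed genes 12 were tested, and 1 was separate and lower. That was Mmp14, a membrane-bound metalloproteinase named after its values were seen, at 757, 664, 781 and 629 against 1126, 1012 and 804 (log2 -0.46 ± 0.28, unadjusted p = 0.124). That share, 1 of 12, lies under the 13.6% of all genes. Cdh2 (N-cadherin) was 46.9, 35.8, 41.2 and 34.5 against 74.1, 74.8 and 44.1, and only 1 siPea3 array exceeded the lowest siCtrl array (log2 -0.67 ± 0.28, adjusted p = 0.341). Vim (vimentin) and the receptor Erbb2 overlapped too, with log2 differences of -0.52 ± 0.24 and -0.56 ± 0.30, and Cxcr4, a chemokine receptor, was near background (log2 1.06 ± 0.59). The median of the 12 was -0.49, or -0.25 relative to all probes, and 3 of the 12 lay above the median of all probes.

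Transcription factors of other families gave single genes. Of 15 SOX and KLF genes 3 were lower. Sox9, a factor of mammary progenitors, was 65.5, 20, 42.1 and 41.3 against 116, 92.9 and 78.3 (log2 -1.28 ± 0.39). Sox2, a pluripotency factor, was 10.9, 9.72, 11.4 and 9.97 against 15.9, 24.8 and 19.9 (log2 -0.92 ± 0.24). Klf13 was 60.7 to 97.5 against 134 to 139.8. None passed (adjusted p = 0.253, 0.197 and 0.27). Of 12 HOX genes 2 were lower, Hoxc4 (28.4 to 46.1 against 46.4 to 66.2) and Hoxa7 (102 to 158 against 164 to 183). Of 14 nuclear receptors 1 was lower, the clock-linked receptor Nr1d1 (16 to 19.9 against 21.6 to 30.3), and of 9 circadian clock genes 1 was higher, Arntl, the partner of Clock, named after its value was seen (33.9 to 52.7 against 19.5 to 33.3).

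Metabolic and organelle genes gave smaller counts, and for lysosomal genes the 4 lower became 2 lower and 2 higher after quantile normalization. Of 20 genes of the tricarboxylic acid cycle 4 were lower, among them Pdha1, a subunit of pyruvate dehydrogenase, at 17.1, 10, 16 and 14.4 against 28.6, 35.5 and 28.3 (log2 -1.12 ± 0.26), and citrate synthase, Cs, at 187 to 308 against 348 to 447. Of 22 genes of nucleotide synthesis 4 were lower and 1 higher. Cad, which starts pyrimidine synthesis, was 16.6, 11.1, 14.1 and 13.6 against 22.6, 31.5 and 23.1 (log2 -0.89 ± 0.25), and Dck, a salvage kinase, 10.9 to 13.5 against 19.5 to 20.5. The higher one was Rrm2b, a p53-induced subunit of ribonucleotide reductase, at 15, 23.4, 15.4 and 16.1 against 13.8, 8.18 and 7.14, highest on array 2. After quantile normalization or scaling over detected probes the balance turned to 2 lower and 4 higher. Of 32 lysosomal genes 4 were lower, with Npc2 as given above, Psap, the precursor of the saposins, at 344, 169, 258 and 256 against 479, 803 and 358, and the protease Ctss at 12.1 to 16.7 against 17.6 to 31.6. Autophagy had 1 of 21 lower, Becn1 (36.7 to 83.6 against 91 to 116), and 1 higher, Atg10 (9.65 to 12.8 against 5.12 to 9.17). Peroxisome and iron and haem genes had 1 of 21 and 3 of 19 lower, among them the thiolase Acaa1a (99.9 to 129 against 149 to 182) and the haem oxygenase Hmox2 (40.3 to 60.7 against 65.6 to 104), and 0 of 15 hypoxia genes were separate.

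Repair, signalling and turnover genes completed the lists. Exo1, an exonuclease of mismatch repair, was 47.8, 48.6, 40.5 and 39.3 against 81, 85.9 and 63.8 (log2 -0.80 ± 0.21), the 1 lower gene of 17 in base, nucleotide and mismatch repair. Homologous recombination and Fanconi genes had 2 of 13 lower, with Rad54l at 21.4 to 27.9 against 37.9 to 49.1, and 1 higher, the dim Fancc, which had no value on siPea3 array 3, so its difference rests on 3 siPea3 arrays. Of 30 ubiquitin enzymes 6 were lower, and Ube2q1, a conjugating enzyme, was 191, 159, 159.6 and 139 against 343, 353 and 305 (log2 -1.05 ± 0.21, adjusted p = 0.119), again with no siPea3 array near the siCtrl arrays. Of 17 SOCS and JAK-STAT genes 2 were lower, with Socs6 at 25.8 to 41.2 against 46 to 64.3, and 1 higher, Socs4, at 13 to 21.7 against 9.18 to 10.5, but 0 were lower and 2 higher under quantile normalization or scaling over detected probes. Of 13 regulators of G protein signalling 2 were lower, with Rgs2 at 4.82 to 13.8 against 19.6 to 30. Of 20 S100 and annexin genes 4 were lower, with Anxa5 at 30.3 to 96.8 against 98.8 to 146. Hippo genes had 4 of 14 lower, with the TEAD factor Tead4 at 9.71 to 16.5 against 16.7 to 28.7, but 1 lower and 1 higher after quantile normalization, a share near the background of 7.77%. Wnt, Hedgehog and fibroblast growth factor genes had 0 of 17, 0 of 4 and 0 of 6 separate. Of 18 serpins 3 were higher, all at 3.43 or less in siPea3 and undetected in siCtrl cells, and 1 was lower.

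Of the epithelial markers none passed, and those with separate groups lay in both directions. Of 8 tested luminal and milk genes 2 were separate and lower and 1 higher. Krt8, a luminal keratin, was 403, 580.0, 358 and 299.8 against 678, 985 and 657 (log2 -0.93 ± 0.28, adjusted p = 0.244). Cd24a, a surface protein of luminal cells, was 539.8, 369, 494 and 345 against 742, 1374 and 797 (log2 -1.12 ± 0.27, adjusted p = 0.179). Krt18, the partner of Krt8, was 71.1, 102, 64.7 and 55.7 against 97.2, 179 and 95, where array 2 overlapped the siCtrl arrays. Krt7, in contrast, was higher, at 4.16, 6.41, 7.72 and 7.21 against 2.22, 1.07 and 3.24 (log2 1.65 ± 0.39, adjusted p = 0.175). In bulk RNA, fewer cells of a type and less RNA per cell cannot be told apart. The summed signal of the luminal markers was 794 to 1158 in siPea3, 1645 to 2682 in siCtrl and 1376 to 1688 in siErm cells, without overlap between siPea3 and siCtrl, and its part in the other results was not tested. Krt8 and Cd24a, named above, make up most of this sum. Gata3 was 84.9 ± 20.6 (SD, n = 4) in siPea3 against 104 ± 26.6 (n = 3) in siCtrl cells, and Krt19 9.9 ± 3.42 against 13 ± 1.51.

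Myoepithelial markers were mixed. Of 3 tested genes 1, Krt17, was higher, at 15.3, 29.2, 33.6 and 22.1 against 9.64, 9.16 and 7.83 (log2 1.44 ± 0.36, adjusted p = 0.192). Krt14 was 23.4 ± 5.23 (SD, n = 4) against 16.6 ± 4.45 (n = 3), and Krt5 was not detected on any array. The summed signal of the 8 markers on the array was 37.5 to 70.7 against 33.0 to 42.3. Of 10 fibroblast genes 1, the dim Fap, was lower. Macrophage markers summed to 49.5 to 76.0 against 49.0 to 84.6, and of 5 tested genes 1 was lower, the mannose receptor Mrc1 (1.87, 5.76, 5.92 and 5.39 against 7.77, 11.9 and 7.57), and 1 higher, the dim Aif1. Endothelial, T and B cell and adipocyte genes had 0 of 4, 0 of 2 and 0 of 2 separate.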

How the data were processed

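RNA from 12 samples was measured on single-colour AB1700 arrays with digoxigenin labelling and chemiluminescence. The deposited intensity of each probe is the authors' normalized signal per the file headers. The software, background correction, scaling and genome build were not stated in the labels or headers. Per the file headers, each intensity came with the ratio of its noise to its signal and with a status code, and the 3482 blank values were those with a failed status.

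Samples were grouped by title. Of 33012 probes, 14411 had 1 gene symbol, 247 several and 18354 none in the platform annotation, and no gene was named from a probe with several. Of the symbols, 14402 were looked up in RefSeq and 0 changed. The log2 intensities of 16724 probes with signal at least 3 times noise on at least 2 arrays were fitted over all 4 groups with limma 3.58.1 in R 4.3.3 (8 residual and 3.06 prior degrees of freedom), with Benjamini-Hochberg adjustment over all probes and a threshold of 0.05. On simulated data (16364 probes, 200 changed) the fit for this comparison recovered 57% of changes of log2 2 and 82% of log2 3, with 3 false calls. The simulated noise was independent between arrays, without a shift of whole arrays or pairing. These values therefore do not give the rate of false calls in the real arrays. The number of arrays limits the precision.

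Named genes were Etv4, Etv5 and Etv1, those that passed, the 12 higher and 12 lower genes with the smallest p that had separate groups and were detected on every array of the brighter group, the 12 higher and 12 lower with the largest difference among separate probes detected on all 7 arrays with a mean of at least 20 in the brighter group, and up to 4 members of each list with the smallest p. For these genes the probe with the smallest p or the largest difference stands, and for lists and gene counts the brightest. Members and lists were chosen with earlier results of these data known. At-least folds set the mean of the brighter group against, per array of the other group, the higher of the lowest detected signal and the probe's own. The main fit held no term for the replicate number, so the limma values given are unpaired unless a block is named. A fit with the replicate number as a block was run as an alternative. Deviations of same-numbered siPea3 and siCtrl arrays correlated at 0.149, 0.27 and 0.257, and those of differently numbered arrays at -0.273 to 0.107. Alternatives changed the scaling, the filter on dim probes, the array weights, the intensity trend, the arrays included and the block.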

Additional observations from a re-analysis of the deposited data

Results flagged for a closer look

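Among 196 groups of siPea3 values checked, 11 had 1 array far from the other 3, where chance gives about 1 in 20. Of these, 7 were on array 2, 3 on array 1 and 1 on array 4. On array 2, Tjp1 was 23.99 (57.41 to 68.48 on the others), Rrm2b 23.42 (15.01 to 16.12) and Anxa4 67.88 (120.6 to 135.5). On array 1, Mrc1 was 1.87 (5.39 to 5.92), Nup93 82.13 (53.72 to 56.09) and Grn 340.8 (155.9 to 170.8). On array 4, Gspt1 was 155.1 (209.4 to 219.0). Median log2 differences of whole lists stood apart on array 2: -0.89 for Hippo genes (-0.32 to -0.27 on the others), -0.58 for HOX genes (-0.22 to -0.16), -0.93 for aminoacyl-tRNA synthetases (-0.22 to -0.19) and -0.49 for autophagy genes (0.09 to 0.15).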

How the results depend on the processing

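For siPea3 against siCtrl, 6 probes passed in limma as deposited. The count was 580 with array weights (181 higher, 399 lower), 70 with detection on every array of 1 group, 43 with an intensity trend, 35 after scaling over detected probes (31 higher, 4 lower), 22 after quantile normalization (17 higher, 5 lower), 6 after median scaling, 5 with no filter, and 0 with only the groups compared (2121 at an unadjusted p under 0.05). For siPea3 against siErm, where 1 passed, the counts were 154, 13, 4, 5, 13, 1, 1 and 0 (1755 unadjusted). Leaving out 1 array gave 0 to 9 and 0 to 2, the latter 0 without siErm array 2 (933 unadjusted) or 3 (1703) and without siPea3 array 2 (1368), 3 (1488) or 4 (1457). Without siPea3 and siCtrl arrays 2, added after seeing the data, the first count was 0 (1313 unadjusted). The labels do not say that equal replicate numbers mark a shared culture or day. With the replicate number as a block, the counts were 0 (1816 unadjusted) and 0 (1649 unadjusted), and Etv4 differed by -0.88 (exact permutation p = 0.25, the smallest that 3 pairs allow). Etv4 was -0.64 after quantile normalization and -0.64 after scaling over detected probes (exact permutation p = 0.0571 for both), -0.83 to -1.06 with 1 array left out, and -0.87 without both arrays 2 (exact permutation p = 0.1, the smallest 3 against 2 arrays allow). The causes were not tested. Over all named genes other than Etv4 and all settings, 2363 values kept their side of the threshold, 127 passed only under the alternative, 16 (of Slc5a1 or Prl3d2) passed only as deposited, and 0 changed direction. Of the list medians 688 moved by less than the spread between arrays and 93 by more. The cadherin list, 0.34 relative to all probes, was -0.18 with array weights and -0.12 without siCtrl array 2. Folds of genes undetected in 1 group rest on signals under the detection rule and carry the error of the fit.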

Other observations

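Genes on chromosome 13 had all siPea3 arrays above all siCtrl arrays more often than those of any other chromosome, 22 of 328 (6.71%) against 0 to 4.63%. Of these genes 20 were histone genes, 9 of them higher, and without them the count was 13 of 308 (4.22%), within the range of the other chromosomes.

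For 304 genes with 2 or more tested probes, the log2 differences of the 2 brightest correlated at r = 0.386 across genes, which are not independent and share the arrays, and at 0.627 for the 164 with both detected on all 7 arrays. In 60 genes the brighter probe had separate groups. The other probe was separate in the same direction in 13 and in the opposite direction in 0.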
